A study of Rattus norvegicus with 56 samples.

Results

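The microRNAs described here were 7 neural and neuroendocrine species, miR-7a-5p, miR-7b, miR-9a-5p, miR-9a-3p, miR-124-3p, miR-137-3p and miR-129-5p. They were chosen by name, with the species prefix removed, from the 682 microRNAs that had a count in at least 1 sample of the series. Small RNA was sequenced from fetal myocardium, amniotic fluid and maternal serum of Sprague-Dawley rats in a model of ventricular septal defect (VSD), a hole in the wall between the ventricles. In the VSD and non-VSD groups the pregnant rats were gavaged with dimethadione (DMO), the active metabolite of an anticonvulsant, at 5 ml/kg of a 60 mg/ml solution every 12 h for 6 doses from D8. Fetuses whose septum was open formed the VSD group, and fetuses exposed to DMO whose septum was intact formed the non-VSD group. In the NC group the pregnant rats received distilled water. All samples were collected at D19. Each of the 3 groups was represented by 7 myocardium and 7 amniotic fluid samples, and maternal serum by 7 NC and 7 VSD samples, which makes 56 samples. Myocardial RNA came from wax blocks, and amniotic fluid was sequenced with another library kit and on another instrument than myocardium and serum, so that tissue and library method cannot be told apart. Whether 2 samples shared a dam is not given in the sources used here, and p-values measure the spread between these samples.

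MicroRNAs are short RNAs that pair through their seed, the bases near the 5′ end, with messenger RNAs and lower their translation and stability. MiR-124 and miR-9 are known as microRNAs of neurons and neural progenitors, miR-137 and miR-129 are enriched in brain, and miR-7 is abundant in neuroendocrine cells such as those of the pancreatic islet and the pituitary as well as in neurons. The normal heart is not known as a main source of miR-124, miR-137 or miR-9, while innervation and neural crest cells bring neural cell types to the developing outflow tract and septum.

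The mature sequences are shown because the miR-7 species differ so little and because the miR-9 arms come from the same hairpins. They were taken from the RefSeq annotation of build GRCr8, which held 6 of the 7 members, miR-124-3p being named only. Sequences are written 5′ to 3′ with the seed, bases 2 to 8, in capitals.
miR-7a-5p: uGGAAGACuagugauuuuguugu
miR-7b: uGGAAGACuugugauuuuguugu
miR-9a-5p: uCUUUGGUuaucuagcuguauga
miR-9a-3p: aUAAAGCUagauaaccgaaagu
miR-137-3p: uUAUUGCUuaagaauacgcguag
miR-129-5p: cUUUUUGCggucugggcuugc
MiR-7a-5p and miR-7b shared the seed and were both 23 bases long. They differed at 1 base, A10U, counted from the 5′ end of miR-7a-5p with the base of miR-7b last. How reads were divided between near-identical species is not given in the sources used here, so that counts of miR-7b in the presence of abundant miR-7a-5p carry this uncertainty. The other 4 sequences had seeds of their own.

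On GRCr8, miR-7a-5p lay at chr17:6278710-6278732 on the plus strand, within the span of Hnrnpk, an RNA-binding protein gene, and as an identical copy at chr1:142215818-142215840 on the plus strand, within the long non-coding RNA LOC120099863. MiR-7b lay at chr9:1167464-1167486 on the plus strand, within the span of the pseudogene Rpl35l3. MiR-9a-5p and miR-9a-3p were read from 3 hairpins with identical mature sequences, so that their counts cannot be assigned to a locus. Their miR-9a-5p arms were at chr2:175974986-175975008, chr2:15933307-15933329 and chr1:142849415-142849437, all on the plus strand and within LOC100911992, Mir9-2hg and Mir9-3hg. MiR-137-3p was at chr2:209165767-209165789 on the plus strand within the long non-coding RNA LOC120100931. MiR-129-5p had identical copies at chr4:58589716-58589736 on the plus strand, within the long non-coding RNA LOC120102250, and chr3:100657448-100657468 on the minus strand. The table gives the spans of genes only, so that exons and introns were not told apart.

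Libraries of myocardium held 1694811 to 9371130 counts, those of amniotic fluid 78188 to 331787 and those of serum 147609 to 581350. A count of 0 therefore allowed up to 1.77 CPM, counts scaled to a library of 1000000, in the smallest myocardium library, 38.4 CPM in the smallest amniotic fluid library and 20.3 CPM in the smallest serum library, taking 3 counts as the limit, which covers counting error only. All 6 heart muscle markers, among them miR-1-3p and miR-133a-3p, were detected in every myocardium group. Their summed level ranged from 5024 to 62416 CPM in NC, from 7527 to 44008 CPM in VSD and from 27846 to 44532 CPM in non-VSD. The lowest of these was NC replicate 2, which also had 24186 CPM of the 11 epithelium markers (the miR-200 family, miR-203a-3p, miR-205, miR-375-3p and the miR-183 cluster), against 833 to 8505 CPM in the other NC samples.

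In the myocardium the members spanned nearly 4 orders of magnitude. Levels are CPM of the listed counts and were not divided by length, which was 21 to 23 bases for the 6 members with a sequence. How well each sequence was captured in the libraries is not known, so that the order of the members is one of counts. In NC, miR-7a-5p was the most abundant, with a median of 5882 CPM (lowest 3159, highest 14683), rank 27 among the 661 microRNAs listed. MiR-9a-5p followed with a median of 273 CPM (227 to 1302), and then miR-129-5p with 84.3 CPM (60.7 to 128). These 3 did not overlap in NC. MiR-7b had a median of 18.7 CPM (4.54 to 97.4), miR-9a-3p 4.07 CPM (0.687 to 15.7), miR-137-3p 1.21 CPM (0.229 to 15.9) and miR-124-3p 0.865 CPM (0 to 12.3). Each of these 4 overlapped its neighbours in this order, miR-7b with miR-129-5p included. MiR-124-3p, among the most abundant microRNAs of brain, was at 0 in 2 of the 7 NC samples. In VSD, miR-7b with a median of 97.7 CPM stood above miR-129-5p with 82.7 CPM, and miR-137-3p with 14.6 CPM above miR-9a-3p with 9.15 CPM, with overlapping ranges in both cases.

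**Figure D1:**
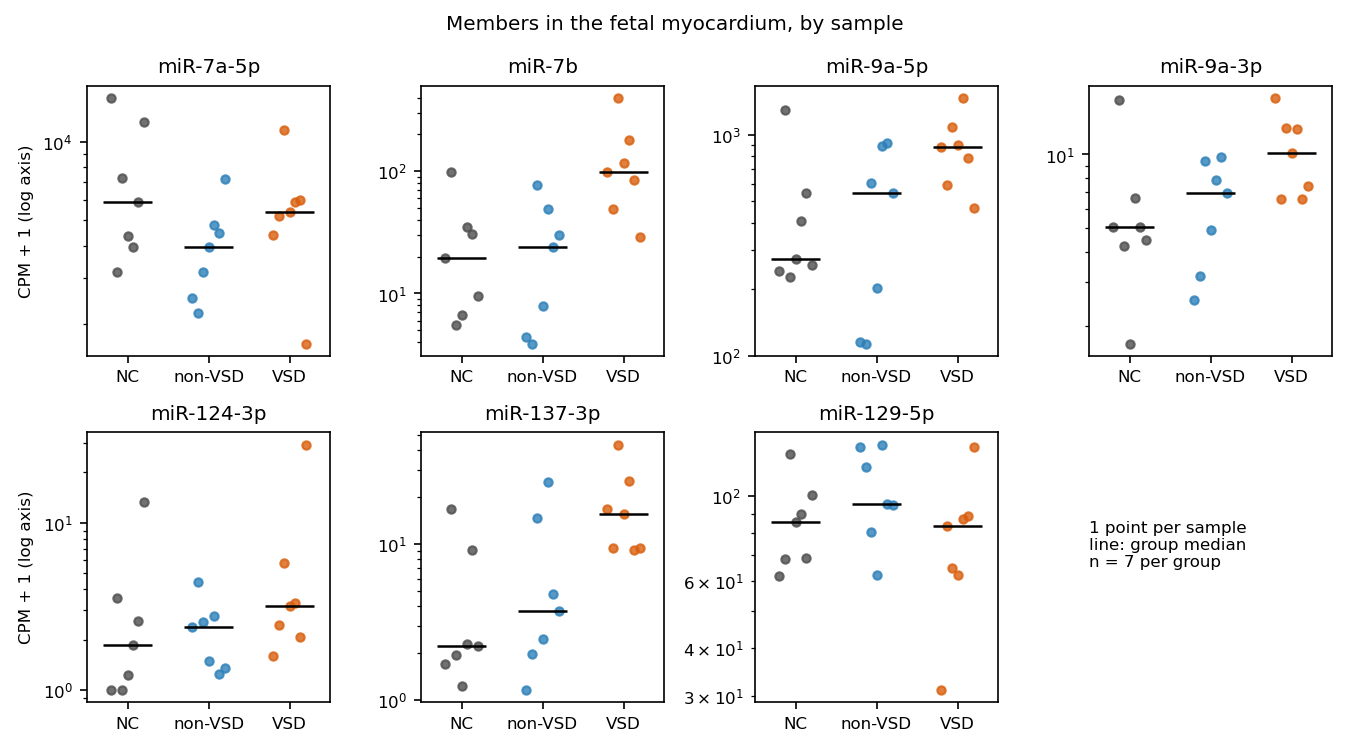
Level of each member in the 21 myocardium samples, as CPM + 1 on a log axis, with 1 point per sample, the group median as a line and n = 7 per group. The VSD points of miR-7b and miR-137-3p all lie above the NC median line, and the highest NC points lie among them.

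The comparison of VSD with NC myocardium asks which microRNAs accompany the defect together with DMO. MiR-7b and miR-137-3p were upregulated, and none of the other 5 members passed the threshold. MiR-7b ranged from 4.54 to 97.4 CPM in NC (median 18.7) and from 27.7 to 395 CPM in VSD (median 97.7). All 7 VSD samples exceeded the NC median, while NC replicate 2, at 97.4 CPM, reached the middle of the VSD range and NC replicates 5 and 6, at 33.9 and 30.0 CPM, its lower end. The fold change was 4.10, a log2 fold change of 2.04 ± 0.63 (SE). Its p was 0.00549 by edgeR's quasi-likelihood test, with an adjusted p of 0.0915 after Benjamini-Hochberg adjustment, and p = 0.00874 by an exact two-sided permutation test over the 3432 groupings. MiR-137-3p, a regulator of neuronal differentiation, ranged from 0.229 to 15.9 CPM in NC (median 1.21) and from 8.12 to 42.5 CPM in VSD (median 14.6). Its log2 fold change was 1.88 ± 0.66 (SE; edgeR p = 0.0123, adjusted p = 0.131, exact permutation p = 0.00874), and every VSD sample again lay above the NC median. A microRNA was called a DE-microRNA where its unadjusted p was below 0.05 and it changed 2-fold or more in either direction. Of 469 microRNAs tested, 32 were called, or 6.82%, and 12 were called higher, or 2.56%, against 2 of 7 members. Among all of them 2, or 0.426%, and among the members none had an adjusted p under 0.05.

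MiR-9a-5p had a median of 881 CPM in VSD (464 to 1466) against 273 CPM in NC, a log2 fold change of 0.65 ± 0.32 (SE; adjusted p = 0.266, exact permutation p = 0.0437). Its opposite arm miR-9a-3p had a median of 9.15 CPM in VSD (lowest 5.59), with a log2 fold change of 0.50 ± 0.40 (SE, adjusted p = 0.479). Neither arm passed the threshold, although none of the VSD samples fell below the NC median of either. MiR-124-3p had a median of 2.18 CPM in VSD (0.596 to 28.3), and 255 of its 326 VSD counts came from replicate 7. Its log2 fold change of 0.86 ± 1.05 (SE) became −0.87 without that sample. MiR-7a-5p had a log2 fold change of −0.84 ± 0.43 (SE, adjusted p = 0.275), and miR-129-5p one of −0.57 ± 0.36 (SE, adjusted p = 0.363). All 4 red blood cell markers were called lower in the same comparison, and their part in the value of miR-7a-5p was not tested. Scaling by library size alone moved the median of all microRNAs in this comparison by 0.37 on the log2 scale, and the changes of miR-7b (2.24) and miR-137-3p (2.04) still passed the threshold.

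Leaving out each sample in turn gave log2 fold changes between 1.37 and 2.55 for miR-7b and between 1.39 and 2.62 for miR-137-3p, and both stayed past the threshold in all 14 cases. In both the lowest value was without VSD replicate 3, the smallest library and the one with the highest miR-7b (395 CPM) and miR-137-3p (42.5 CPM), and the highest was without NC replicate 2. With both of these libraries left out, which was chosen after seeing the data, the log2 fold changes were 1.94 for miR-7b and 2.22 for miR-137-3p, each with an adjusted p of 0.0296. That fit gave miR-9a-5p 0.85 (adjusted p = 0.0412) and made miR-7a-5p a called decrease of −1.32 (adjusted p = 0.0365). In it 56 of all microRNAs tested had an adjusted p under 0.05, against 2 in the main fit. Both libraries left out had the highest miR-7b and miR-137-3p of their groups, so that these adjusted p-values cannot serve as support for the members.

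Markers of other cell types differed between the groups as well. In VSD against NC myocardium, 11 of 11 epithelium markers had a log2 fold change above 0, with a median of 1.18, beside a median of −0.05 over all 469 microRNAs tested, and 1 of them, miR-96-5p, was called. Their summed level ranged from 833 to 24186 CPM in NC (median 1686) and from 3116 to 29208 CPM in VSD (median 5099), and none of the 11 was at 0 in any group. VSD replicate 1 had the highest sum, 29208 CPM, with 97.7 CPM of miR-7b. VSD replicates 4 and 5 followed with 23215 and 20007 CPM, and had 115 and 181 CPM of miR-7b. VSD replicate 3, with the highest miR-7b, had 4284 CPM. NC replicate 2 had the highest sum and the highest miR-7b of its group, 24186 and 97.4 CPM. Of the 6 heart muscle markers 1 was above 0 and none was called (median log2 fold change −0.47). The part of either list in the changes of miR-7b and miR-137-3p was not tested. In bulk tissue more cells of a type cannot be told apart from more RNA per cell.

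The comparison of VSD with non-VSD myocardium sets the defect apart from exposure to DMO, which both groups had. MiR-7b was upregulated in VSD, from a non-VSD median of 23.1 CPM (2.88 to 76.0) to 97.7 CPM (27.7 to 395). No VSD sample was below the non-VSD median, and the groups overlapped through non-VSD replicates 3, 5 and 7 at 76.0, 48.3 and 29.2 CPM. The log2 fold change was 2.24 ± 0.71 (SE; edgeR p = 0.00446, adjusted p = 0.426), at rank 3 by p among the 483 microRNAs tested, and the exact permutation test gave p = 0.00699. Among all 483, 25 were called, or 5.18%, and 19 higher, or 3.93%, against 1 of 7 members. No microRNA had an adjusted p under 0.05, by edgeR or by DESeq2, and 56 had an unadjusted p under 0.05.

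MiR-137-3p, with a non-VSD median of 2.72 CPM (0.154 to 24.0), had a log2 fold change of 1.27 ± 0.78 (SE; adjusted p = 0.473), and its exact permutation p was 0.0221. Its groups overlapped through non-VSD replicates 3 (13.8 CPM) and 5 (24.0 CPM). Without replicate 5 it passed the threshold, with a log2 fold change of 2.13. MiR-124-3p had a log2 fold change of 1.99 ± 0.999 (SE, adjusted p = 0.439), which ranged from 0.29 without VSD replicate 7 to 2.52 without non-VSD replicate 2 and passed the threshold in 5 of the 14 fits that left out a sample. MiR-9a-5p (0.74 ± 0.43, SE), miR-9a-3p (0.66 ± 0.41, SE), miR-7a-5p (0.36 ± 0.39, SE) and miR-129-5p (−0.50 ± 0.34, SE) had log2 fold changes that did not pass. Of the epithelium markers, 11 of 11 were again above 0, with a median log2 fold change of 1.501 and 4 called (miR-182, miR-183-5p, miR-203a-3p and miR-375-3p). None of the 6 heart muscle markers was above 0 or called (median −0.54). The part of either list in the change of miR-7b was not tested.

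Exposure to DMO without a defect is the question of non-VSD against NC. MiR-7a-5p was downregulated in the non-VSD myocardium, from a median of 5882 CPM (3159 to 14683) to 3942 CPM (2203 to 7221). It was below the NC median in 6 of 7 non-VSD samples, and the groups overlapped. The log2 fold change was −1.14 ± 0.38 (SE; edgeR p = 0.00885, adjusted p = 0.126), and the exact permutation test gave p = 0.0408. Of 456 microRNAs tested, 19 were called, or 4.17%, and 11 were called lower, or 2.41%, against 1 of the 5 members that passed the filter on low counts. An adjusted p under 0.05 was reached by 1 microRNA, or 0.219%, which was not a member. The call was lost without NC replicate 1 (−0.92) or NC replicate 7 (−0.99), and with library-size scaling (−0.86), limma (−0.99) and a replicate block (−0.97). Those NC samples had the highest miR-7a-5p, 14683 and 11934 CPM, and the highest summed red blood cell markers, 57639 and 73069 CPM. All 4 of those markers (miR-451-5p, miR-144-3p, miR-144-5p and miR-486) were lower in non-VSD by the sign of the log2 fold change, 3 of them called, with a summed median of 7704 CPM (3051 to 34882) against 29060 CPM (3266 to 73069) in NC. The 4 white blood cell markers had a summed median of 584 CPM against 1255 CPM in NC, with miR-142-5p called lower. The 2 endothelium markers had 20135 to 29096 CPM against 10638 to 16523 CPM in NC. VSD myocardium also had more of them than NC, 16153 to 30570 CPM, with medians of 21771 CPM in VSD and 12457 CPM in NC. The part of these markers in the decrease of miR-7a-5p was not tested.

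MiR-7b (log2 fold change −0.18 ± 0.69, SE), miR-9a-5p (−0.08 ± 0.47, SE), miR-9a-3p (−0.12 ± 0.45, SE) and miR-129-5p (−0.04 ± 0.31, SE) did not pass the threshold between non-VSD and NC myocardium. The 95% interval of miR-7b reached from −1.65 to 1.29, so that changes up to these sizes could not be told from none. MiR-124-3p and miR-137-3p were under the filter here. MiR-137-3p had 268 counts in non-VSD and 231 in NC, and the exact permutation test of log2(CPM + 1) gave p = 0.537 (adjusted p = 0.895 over 16 such tests of members under the filter). MiR-124-3p had 60 counts against 132, with an exact permutation p of 0.897.

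**Figure D2:**
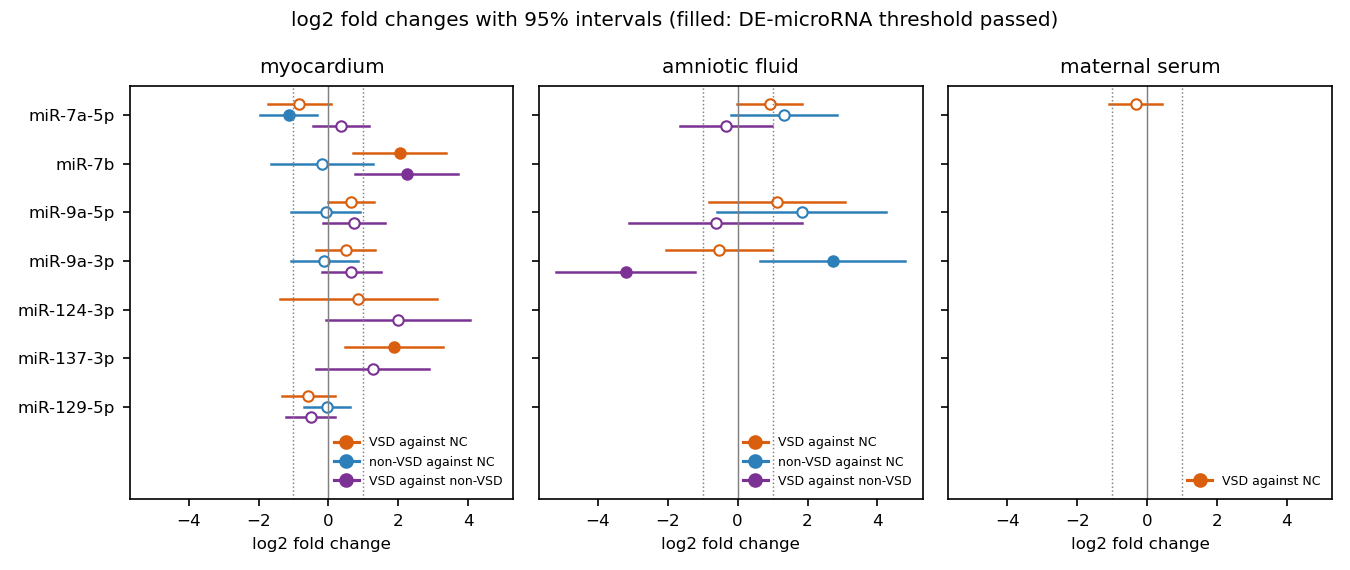
Log2 fold changes of the members tested in each comparison with their 95% intervals, filled where the DE-microRNA threshold was passed, with dotted lines at a fold change of 2 in either direction. MiR-7b lies to the right in both comparisons of VSD myocardium, at 2.04 against NC and 2.24 against non-VSD, and at −0.18 in non-VSD against NC.

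Because miR-7a-5p and miR-7b share a seed, their ratio within a library was compared as well, which does not depend on the scaling between libraries. MiR-7b made up a median of 0.131% of the counts of both in NC myocardium (0.0624% to 2.99%), 0.403% in non-VSD (0.131% to 2.35%) and 2.11% in VSD (0.919% to 3.44%). Every VSD sample exceeded the median of NC and of non-VSD, and the groups overlapped through NC replicate 2 and non-VSD replicates 3 and 5. The mean log2 ratio of miR-7b to miR-7a-5p was −5.67 ± 0.67 (SD) in VSD and −8.53 ± 2.09 in NC, a difference of 2.86 (exact permutation p = 0.00816, adjusted p = 0.0245 over 6 ratio tests). Against non-VSD (−7.96 ± 1.57) the difference was 2.29 (exact permutation p = 0.00699, adjusted p = 0.0245). Between non-VSD and NC it was 0.57 (exact permutation p = 0.566). The share of miR-7b in the summed miR-7 counts was small in every myocardium group, so that nearly all counts with the shared seed there were those of miR-7a-5p. In amniotic fluid miR-7b made up 19 of 279 such counts in NC, or 6.81%, 0 of 478 in VSD and 0 of 832 in non-VSD.

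No difference in the ratio of the miR-9a arms was detected in the myocardium. MiR-9a-3p made up a median of 1.34% of the counts of both arms in NC (0.251% to 1.67%), 1.32% in non-VSD (0.765% to 1.92%) and 1.002% in VSD (0.709% to 1.78%). The log2 ratio differed by 0.04 between VSD and NC (exact permutation p = 0.931), by 0.33 between non-VSD and NC (p = 0.459) and by −0.29 between VSD and non-VSD (p = 0.263), all by exact permutation tests. In amniotic fluid the share of miR-9a-3p was far higher, with a median of 48.6% in NC (13.3% to 88.9%), 77.1% in non-VSD (52.5% to 100%) and 45.5% in the 6 VSD samples with a count (15.2% to 100%). These shares rested on few counts, those of 100% on 6 to 16 per sample. Pooled counts gave 54.8% in NC (115 of 210), 74.8% in non-VSD (1612 of 2155) and 29.9% in VSD (99 of 331). The ranges of myocardium and amniotic fluid did not overlap. In maternal serum miR-9a-3p made up 1 of 43 counts in NC and 8 of 61 in VSD, or 13.1% (exact 95% interval 5.84% to 24.2%). Serum shared the library kit with myocardium, but its RNA was extracted with another kit. Between myocardium and amniotic fluid the library kits differed as well. Kit and tissue cannot be told apart in either comparison.

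**Figure D3:**
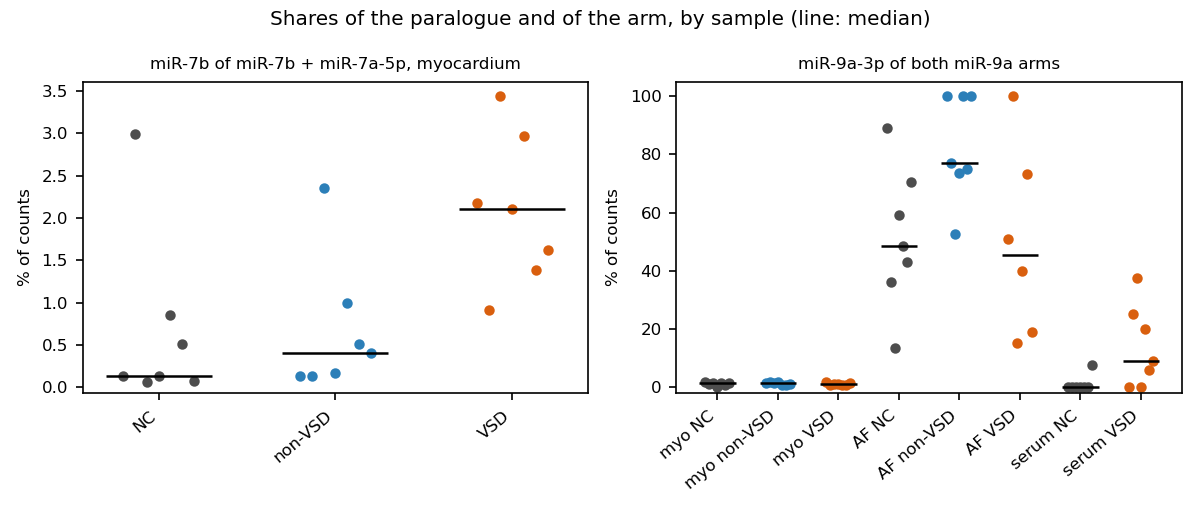
Share of miR-7b in the counts of miR-7b and miR-7a-5p in myocardium (left) and share of miR-9a-3p in the counts of both miR-9a arms in the 3 tissues (right), in % of counts, with 1 point per sample with a count and the median as a line. VSD myocardium has a median miR-7b share of 2.11% against 0.131% in NC. The median miR-9a-3p share is near 1% in the myocardium groups but 45.5% to 77.1% in the amniotic fluid groups.

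Across the 21 myocardium samples, 4 members varied together. On log2 TMM-scaled CPM, miR-7b correlated with miR-137-3p (Pearson r = 0.877, Spearman rho = 0.895), with miR-9a-5p (r = 0.876, rho = 0.858) and with miR-9a-3p (r = 0.793, rho = 0.797). Each Pearson p was 1e-05, the smallest that 100000 permutations can give, and 4.2e-05 adjusted over the 21 pairs of members. Spearman p for these 3 pairs was between 1e-05 and 5e-05. Leaving out the 2 samples farthest from the median of miR-7b gave r = 0.861 with miR-137-3p, 0.858 with miR-9a-5p and 0.766 with miR-9a-3p. With the mean of each group removed, r was 0.832, 0.847 and 0.753, so that the relation was also present among samples of the same group. MiR-9a-5p and miR-137-3p correlated likewise (r = 0.814, rho = 0.851, permutation p = 1e-05 for both).

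No correlation of miR-7a-5p with miR-7b was detected (r = 0.05, rho = 0.02, permutation p = 0.818 and 0.916), although the 2 species differ by 1 base. Within groups r was −0.68 in NC, 0.48 in non-VSD and 0.85 in VSD, and rho −0.68, 0.36 and 0.61. The exact permutation p for r of this pair was 0.103, 0.262 and 0.0236. Its lowest adjusted p, over 63 relations within groups, was 0.140, and without the 2 farthest samples r in VSD was 0.16. Among all 63 relations the lowest adjusted exact permutation p for r was 0.025, for miR-7a-5p with miR-9a-5p in NC. There r was −0.928 and rho −0.964 (adjusted exact permutation p for rho 0.175), while r was 0.646 in non-VSD and 0.736 in VSD. MiR-124-3p was not detectably correlated with any of the other 6 members, its 6 permutation p-values for Pearson's r lying between 0.166 and 0.922. MiR-129-5p ran against miR-7b (r = −0.55, rho = −0.59, permutation p = 0.0082 and 0.00498, adjusted 0.0246 and 0.0149). With group means removed that r was −0.42.

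The microRNAs most like each member, by Spearman's rho over the 21 myocardium samples among the other 482 tested, fell into 3 kinds, given here without a test. MiR-384-3p was the closest to miR-7b (rho = 0.917), miR-137-3p (0.901), miR-9a-5p (0.884) and miR-9a-3p (0.860). MiR-384-5p, its opposite arm and a member of the brain-enriched list, came next but 1 for miR-7b (0.894) and for miR-137-3p (0.881). MiR-7a-5p was closest to miR-451-5p (0.851) and miR-144-5p (0.782), both of red blood cells, and then to miR-1224 (0.727). MiR-129-5p was closest to miR-30e-3p (0.926), miR-378a-3p (0.894) and miR-378b (0.891), the miR-378 family being known for its abundance in heart and skeletal muscle. MiR-124-3p had no close partner, its highest rho being 0.618, with miR-181c-5p.

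Summed markers divided the members similarly. Of 28 relations between the 7 members and the summed markers of epithelium, heart muscle and red blood cells and the library total, miR-129-5p followed heart muscle (r = 0.801, rho = 0.849, permutation p = 1e-05 and 2e-05) and ran against epithelium (r = −0.820, rho = −0.795, permutation p = 2e-05 and 4e-05). MiR-7a-5p followed red blood cell markers (r = 0.825, rho = 0.847, permutation p = 1e-05 and 2e-05). Without the 2 samples farthest from the median of the marker sum these r were 0.793, −0.784 and 0.732, and with group means removed 0.792, −0.778 and 0.786. Relations with epithelium were weaker for miR-137-3p (r = 0.641, rho = 0.614, adjusted permutation p = 0.013 and 0.0212) and miR-7b (r = 0.579, rho = 0.614, adjusted permutation p = 0.0345 and 0.0212). Without the 2 farthest samples these r were 0.551 and 0.484, and with group means removed 0.507 and 0.417. The miR-9a arms had r = 0.512 (miR-9a-5p) and 0.529 (miR-9a-3p) with epithelium, with adjusted permutation p for r of 0.0637 and 0.0579. MiR-7b ran against heart muscle (r = −0.507, rho = −0.596, adjusted permutation p = 0.0637 and 0.0245), with r = −0.526 without the 2 farthest samples and −0.407 with group means removed. No correlation with the library total was detected for any member (lowest permutation p 0.0704, by Spearman's rho, and 0.119, by Pearson's r). Without the 2 libraries farthest from the median total, r with the total was 0.469 for miR-7b, 0.484 for miR-137-3p, 0.479 for miR-9a-3p and 0.455 for miR-124-3p, which was not tested.

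**Figure D4:**
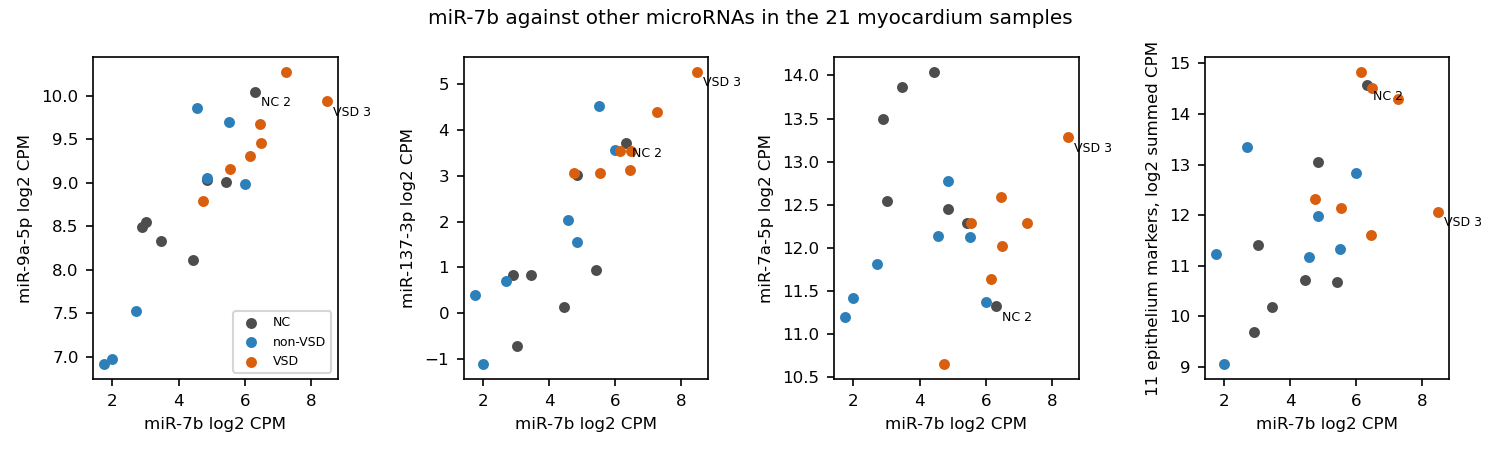
Log2 TMM-scaled CPM of miR-7b against miR-9a-5p, miR-137-3p and miR-7a-5p and against the log2 summed CPM of 11 epithelium markers in the 21 myocardium samples, coloured by group, with NC replicate 2 and VSD replicate 3 named. Points rise together for miR-9a-5p (r = 0.876) and miR-137-3p (r = 0.877), not for miR-7a-5p (r = 0.05), and with more scatter for the epithelium markers (r = 0.579).

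Other arms and paralogues of the same hairpins were sparse. Of 8 such names, 6 were listed in myocardium, 1 in amniotic fluid and 2 in serum. MiR-7a-1-3p, the opposite arm of miR-7a-5p in Hnrnpk, had medians of 9.46 CPM in NC, 13.2 in non-VSD and 12.5 in VSD myocardium. MiR-124-5p had 32, 12 and 44 counts in those groups and miR-137-5p 8, 2 and 11. MiR-129-1-3p and miR-129-2-3p, of which the first is the start of the second, had group medians of 3.26 to 3.49 and of 5.82 to 6.53 CPM in myocardium, and reads may have been shared between them. None of the 3 arms tested was called in any myocardium comparison.

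A list of 16 other brain-enriched microRNAs, with 15 listed in myocardium, was tested in the same fits. In VSD against NC none of 13 tested was called and 8 were above 0 (median log2 fold change 0.45, beside −0.05 over all microRNAs tested). Against non-VSD, 2 of 13 were called higher, beside 3.93% of all microRNAs, miR-338-3p, known from oligodendrocytes and neurons, with a log2 fold change of 1.45 ± 0.54 (SE, adjusted p = 0.426), and miR-384-5p with 1.36 ± 0.57 (SE, adjusted p = 0.426). In non-VSD against NC, 1 of 11 was called, miR-132-3p, an activity-regulated neuronal microRNA, at 1.19 ± 0.35 (SE, adjusted p = 0.0925). The summed level of the list had medians of 729 CPM in NC, 662 in non-VSD and 660 in VSD myocardium. MiR-128-3p was the most abundant of the 13 tested, with TMM-scaled means of 590 CPM in NC and 332 CPM in VSD. Its log2 fold change in VSD against NC was −0.83 ± 0.31 (SE; adjusted p = 0.149, exact permutation p = 0.0268), so that the sum reflects it more than the rest. Of 7 neuroendocrine microRNAs, 4 of which are also in the epithelium list, 1 (miR-96-5p) was called higher in VSD against NC and 3 (miR-182, miR-183-5p and miR-375-3p, a microRNA of islets and epithelia) against non-VSD, and none in non-VSD against NC. Over all microRNAs 2.56% and 3.93% were called higher in those VSD comparisons.

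In amniotic fluid 3 members, miR-7a-5p, miR-9a-5p and miR-9a-3p, passed the filter on low counts, and the other 4 were at 0 in most samples. MiR-7a-5p had a median of 268 CPM in NC (121 to 502), 471 CPM in VSD (189 to 760) and 783 CPM in non-VSD (0 to 1269). Non-VSD replicate 7 had a count of 0, which allowed up to 31.8 CPM in that library. In VSD against NC the NC median was exceeded in 6 of 7 VSD samples and the ranges overlapped, with a log2 fold change of 0.91 ± 0.44 (SE; edgeR p = 0.0536, adjusted p = 0.375, exact permutation p = 0.0390). In non-VSD against NC the log2 fold change was 1.32 ± 0.72 (SE, adjusted p = 0.337). The 17 calls among 245 microRNAs tested, or 6.94%, in VSD against NC included none of the 3 members tested. Unadjusted p was under 0.05 for 33 microRNAs there and for none of the members, and DESeq2 called no member either.

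MiR-9a-3p passed the threshold in both amniotic fluid comparisons of non-VSD, and a single library made both calls. Of 1612 non-VSD counts, 1425, or 88.4%, came from replicate 2, at 4295 CPM, while the other 6 non-VSD samples ranged from 37.6 to 931 CPM. The median was 117 CPM in non-VSD, 93.7 CPM in NC (13.4 to 402) and 82.9 CPM in VSD (0 to 145). Against NC the log2 fold change was 2.72 ± 0.99 (SE; edgeR p = 0.0130, adjusted p = 0.110), with 30 of 242 microRNAs called, or 12.4%, 21 of them higher, or 8.68%, and the exact permutation test gave p = 0.348. VSD against non-VSD gave −3.20 ± 0.97 (SE; edgeR p = 0.00284, adjusted p = 0.104), with 9 of 273 called, or 3.30%, 5 of them lower, or 1.83%, and an exact permutation p of 0.212. Without non-VSD replicate 2 the log2 fold changes were 0.80 and −1.34, and neither passed. In non-VSD against NC 12 microRNAs, or 4.96%, had an adjusted p under 0.05, none of them a member.

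MiR-9a-5p and miR-124-3p were also highest in that library. MiR-9a-5p was detected in 7 of 7 NC samples (50.2 to 194 CPM, median 76.5), in 5 of 7 VSD samples (up to 522 CPM) and in 4 of 7 non-VSD samples, of which replicate 2 had 1275 CPM and replicate 3 had 843 CPM. Its log2 fold changes, 1.13 ± 0.92 (SE) for VSD and 1.83 ± 1.16 (SE) for non-VSD against NC, were above 0, while the mean log2 CPM was lower by 0.16 and 0.55, and neither passed. MiR-124-3p had no count in the 7 NC samples, 10 counts in VSD replicate 4 and 74 counts in non-VSD, 64 of them in replicate 2 and 10 in replicate 3. Pooled over the group this was at least 22.2-fold higher in non-VSD than in NC, with 3 counts over the NC group as its limit, and at least 4.23-fold higher without non-VSD replicate 2, but the exact permutation test gave p = 0.462 (adjusted p = 0.895). MiR-137-3p had 5 counts, all in VSD replicate 4.

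MiR-7b was found in amniotic fluid only in NC. It had 19 counts in 4 of the 7 NC samples (25.2 to 67.0 CPM where present) and none in the 14 samples exposed to DMO. Pooled over the groups it was at least 6.78-fold lower in VSD and at least 7.04-fold lower in non-VSD than in NC, with 3 counts per group as the limit. The exact permutation test gave p = 0.0699 for each (adjusted p = 0.280), so that neither difference passed. Of the 19 counts, 10 were in NC replicate 3, without which the bounds were 3.76-fold and 3.91-fold. In a fit without the filter on low counts miR-7b was called lower in both comparisons, with adjusted p of 0.210 and 0.131. MiR-129-5p was present in 4 NC, 3 VSD and 2 non-VSD samples with 44, 34 and 19 counts, and the exact permutation test gave p = 0.674 for VSD and p = 0.266 for non-VSD against NC.

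In maternal serum, miR-7b and miR-124-3p were not listed, and miR-7a-5p alone passed the filter. MiR-7a-5p had a median of 72.5 CPM in NC (40.5 to 108) and 54.2 CPM in VSD (13.7 to 147). The groups overlapped over most of their range, and the log2 fold change was −0.33 ± 0.36 (SE, adjusted p = 0.708), with 10 of 219 microRNAs called, or 4.57%, and no member among them. The 95% interval reached from −1.07 to 0.42.

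MiR-129-5p had 31 counts in VSD serum, with all 7 samples positive (5.39 to 27.1 CPM, median 16.2), and 20 counts in NC, with 6 of 7 positive (0 to 11.9 CPM, median 7.28). The mean log2(CPM + 1) was higher by 1.27 in VSD, with p = 0.0379 by an exact permutation test and an adjusted p of 0.280 over the 16 tests. MiR-9a-3p had 8 counts in 5 VSD samples and 1 count in 1 NC sample (exact permutation p = 0.0536, adjusted p = 0.280). MiR-9a-5p had 53 and 42 counts, with medians of 31.2 CPM in VSD and 14.6 CPM in NC (exact permutation p = 0.111). MiR-137-3p had 2 and 3 counts, each in 1 sample. At these depths, differences of this size rested on a few counts per sample.

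**Figure D5:**
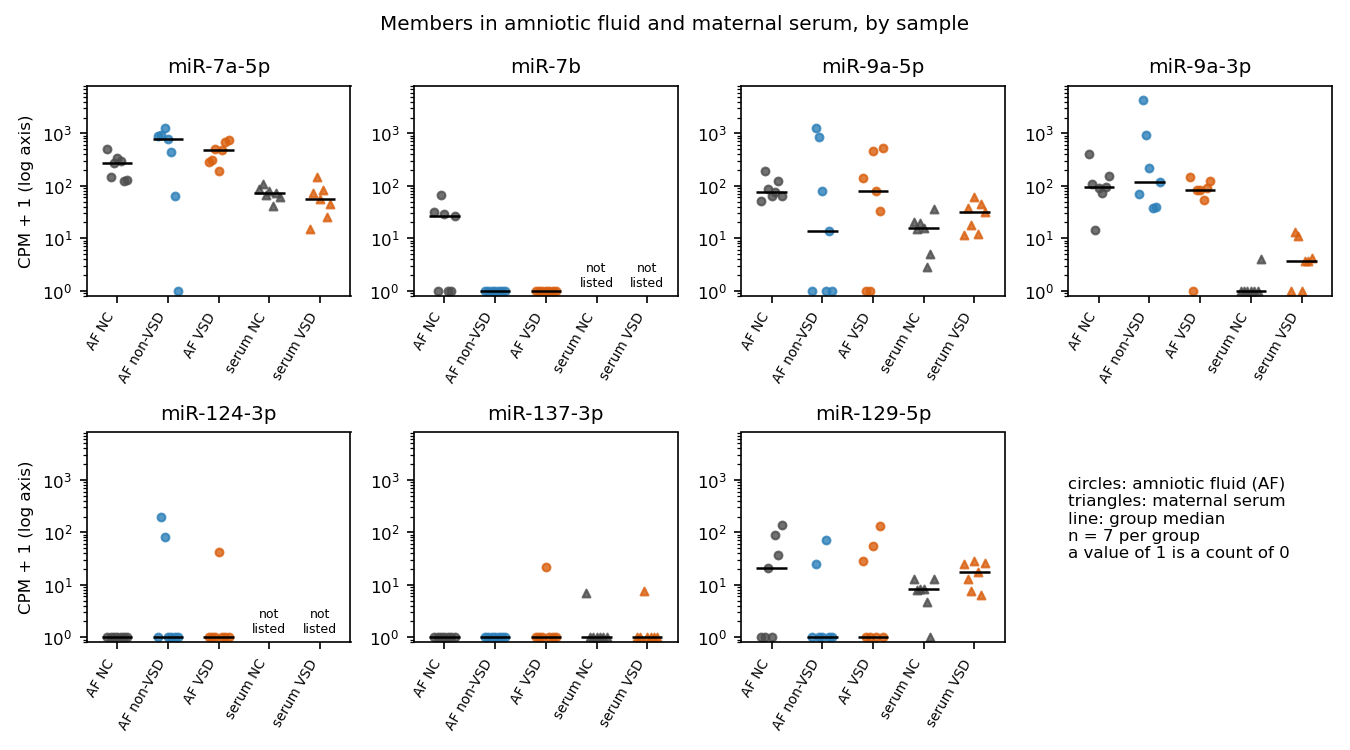
Level of each member in amniotic fluid (AF, circles) and maternal serum (triangles), as CPM + 1 on a log axis, with 1 point per sample, the median as a line and n = 7 per group, a value of 1 being a count of 0. MiR-7b has counts in 4 NC amniotic fluid samples and in none of the 14 exposed to DMO, and miR-9a-3p reaches 4295 CPM in 1 non-VSD sample.

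Whether a member changed differently in 2 tissues was tested for those that passed the filter in both, 7 tests in all. For miR-7a-5p the change from NC to VSD in mean log2 CPM was −0.75 in myocardium and 0.90 in amniotic fluid, a difference of −1.65 (permutation p = 0.0109, adjusted p = 0.0762). Leaving out each sample in turn gave −1.90 to −1.41, while with library-size scaling it was −1.17 (permutation p = 0.0568). The summed red blood cell markers ran in the same directions, with medians of 29060 CPM in NC and 8905 CPM in VSD myocardium, and of 21821 CPM in NC and 39244 CPM in VSD amniotic fluid. So did those of white blood cells (1255 and 694 CPM, and 2889 and 3131 CPM) and of heart muscle (31460 and 23930 CPM, and 162 and 430 CPM). Those of epithelium, endothelium, liver and skeletal muscle did not. In amniotic fluid the microRNA closest to miR-7a-5p was miR-142-5p, of white blood cells (rho = 0.713). The part of these markers in this difference was not tested. The other 6 tests, of miR-7a-5p in non-VSD and in serum and of the miR-9a arms, had permutation p-values between 0.133 and 0.858.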

How the data were processed

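MicroRNAs were sequenced in 56 rat samples from 3 tissues. The authors converted images to reads with bcl2fastq, filtered them with the FASTX-Toolkit and deposited counts per mature microRNA for each sample. The aligner, annotation and genome build are not given in the sources used here. Beside the counts, the authors deposited a normalized signal for myocardium and serum (42 columns), CPM for amniotic fluid (28 columns, with 4 columns of group means), and their own comparisons as log2 values, fold changes and p-values (15 columns), none of which was used.

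Counts of each comparison were filtered by filterByExpr (minimum count 10, minimum total 15), TMM-scaled and tested with edgeR 4.0.16 in R 4.3.3 by the quasi-likelihood test over all microRNAs, 7 samples against 7, without covariates. For VSD against non-VSD the fit held all 3 groups. Benjamini-Hochberg adjustment ran over all microRNAs tested. Levels in the text are CPM of the listed counts, and log2 CPM used a prior count of 2. Members under the filter were compared by exact permutation of log2(CPM + 1). Tissue differences and correlations used 100000 permutations (Python 3.11.15, numpy 2.4.6). The procedure was tested on simulated data. Alternatives were library-size scaling, DESeq2 1.42.0, limma 3.58.1, no filter, a replicate block, another set of groups in the fit, and leaving out each sample. Correlations within groups, bounds without the sample with most counts and the fit without NC replicate 2 and VSD replicate 3 were added after seeing the data.

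The members, marker lists and tests were chosen with earlier results of these data known. The microRNAs named are the members, called microRNAs of the lists, miR-128-3p for its level, and for each member the 3 with the highest Spearman rho. Myocardium depth was 1694811 to 9371130 counts, and depths of the fluids, 78188 to 581350, limit what can be detected there.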

Additional observations from a re-analysis of the deposited data

Results flagged for a closer look

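In a group of 7 samples, a sample was looked at again where its gap to the nearest other sample, divided by the range of the group, passed Dixon's critical value on the CPM scale. Chance flags about 1 in 20 groups where values are normally distributed, which CPM need not be, and 8 of 32 groups stood out, each through its highest sample. In NC myocardium, replicate 2 stood apart with 97.4 CPM of miR-7b (next highest 33.9), 1302 CPM of miR-9a-5p (next 547) and 15.7 CPM of miR-9a-3p (next 5.62). The same library had the lowest summed heart muscle markers and the highest summed epithelium markers of its group. In VSD myocardium, replicate 3 stood apart with 395 CPM of miR-7b (next 181).

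MiR-124-3p stood apart in 2 myocardium libraries, NC replicate 7 with 12.3 CPM (92 counts) and VSD replicate 7 with 28.3 CPM (255 counts). In amniotic fluid, miR-9a-3p stood apart in NC replicate 1 with 402 CPM (40 counts) and in non-VSD replicate 2 with 4295 CPM (1425 counts).

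The change of miR-7a-5p from NC to VSD differed between myocardium and amniotic fluid by −1.65 on the log2 scale, with a permutation p of 0.0109 that was 0.0762 after adjustment over 7 tests. The tissues were prepared with different kits.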

How the results depend on the processing

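Leaving aside fits without single samples, 32 of 51 recomputed member counts and tissue differences stayed the same by the rules that follow. So did 170 of 201 recomputed log2 fold changes and shares of paralogue or arm. A log2 fold change had to keep its direction and its side of the threshold. For a tissue difference the direction and the side of a permutation p of 0.05 had to be kept. Member counts had to stay within a set ratio of the main count. Shares of pooled counts had to lie within the group's SD of the median. The cause of each change below was not tested. In VSD against NC myocardium the 2 calls, miR-7b and miR-137-3p, were kept under every setting run, and DESeq2 gave them adjusted p of 0.0145 and 0.0360. Of all 469 microRNAs tested there, 32 were called in the main fit, 45 with library-size scaling, 38 with DESeq2 and 39 with limma. The count of all microRNAs with an adjusted p under 0.05 there was 2 in edgeR, 38 with library-size scaling, 46 with DESeq2, 25 with all 3 groups in the fit, 2 with limma, 1 without a filter, 0 with the replicate block and 56 without NC replicate 2 and VSD replicate 3.

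In non-VSD against NC myocardium 0 members were called with library-size scaling, limma and the replicate block, where miR-7a-5p had −0.86, −0.99 and −0.97. Signs turned for miR-9a-5p (0.0586), miR-9a-3p (0.0111) and miR-129-5p (0.26) with library-size scaling, for miR-129-5p (0.0195) with limma, and for miR-9a-3p (0.0051) and miR-129-5p (0.0329) with the replicate block. In VSD against non-VSD myocardium 2 members were called with library-size scaling, DESeq2, the replicate block and a fit of the 2 groups alone, and 3 with limma. The main fit called 1 member there, beside 5.18% of all microRNAs. Except where counts over all microRNAs are printed, the shares called under the settings of this paragraph are not given here. A changed member count is therefore no result about the members. In amniotic fluid without a filter 3 members were called in VSD against NC (miR-7b, miR-124-3p and miR-137-3p; 84 of 493 microRNAs), 4 in non-VSD against NC (miR-7a-5p, miR-7b, miR-9a-3p and miR-124-3p; 109 of 507) and 2 in VSD against non-VSD (miR-9a-3p and miR-137-3p; 88 of 523), while limma and the replicate block called 0 in both non-VSD comparisons and DESeq2 called 2 in non-VSD against NC. Without a filter miR-9a-3p, 1 member, was called in serum (34 of 518). Amniotic fluid miR-9a-5p turned to −1.13 (limma) and −0.20 (replicate block) in VSD against NC, to −2.09 and −1.27 in non-VSD against NC, and to 1.01 and 1.51 in VSD against non-VSD. Amniotic fluid miR-7a-5p turned to −0.0183 (limma) in non-VSD against NC and to 1.02 (limma) and 0.0687 (replicate block) in VSD against non-VSD. The tissue difference of miR-7a-5p was −1.17 between myocardium and amniotic fluid and 0.11 between myocardium and serum with library-size scaling.

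Leaving out each sample gave 2 to 3 called members in VSD against NC, 0 to 1 in non-VSD against NC and 1 to 2 in VSD against non-VSD myocardium, and 0 to 1, 0 to 2 and 0 to 1 in amniotic fluid. In the main fits the shares called over all microRNAs were 6.82%, 4.17% and 5.18% in myocardium. In amniotic fluid they were 6.94%, 12.4% and 3.30%. The shares in the fits without single samples are not given here, so that a changed member count is no result about the members. Signs turned for miR-124-3p in VSD against NC (−0.87 to 2.45), for miR-7b (−0.63 to 0.36), miR-9a-5p (−0.34 to 0.24), miR-9a-3p (−0.32 to 0.26) and miR-129-5p (−0.15 to 0.20) in non-VSD against NC myocardium, for amniotic fluid miR-9a-3p in VSD against NC (−0.71 to 0.0027) and miR-9a-5p in VSD against non-VSD (−1.20 to 0.44), and for the difference of miR-9a-5p between myocardium and amniotic fluid in non-VSD (−0.17 to 0.95). The corresponding differences of miR-9a-3p in VSD (0.749 to 1.52) and of miR-7a-5p in non-VSD (−2.24 to −1.13) each passed a permutation p of 0.05 in 1 of 28 cases, without amniotic fluid NC replicate 3 and without amniotic fluid non-VSD replicate 7.

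The replicate numbers are shared between groups, and whether they pair the samples is not given in the sources used here. From 0 to 5 of the 7 same-numbered pairs of a comparison correlated above 0.1. This cannot decide the question, since pairs with different numbers were not compared. The block changed no call in VSD against NC in any tissue. In the fluids a depth of 78188 to 581350 counts leaves miR-7b, miR-124-3p, miR-137-3p and miR-129-5p with few counts or none in most samples.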
